A study of Mus musculus with 88 samples.

Results

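Wdfy1 encodes a protein with WD repeats and a FYVE domain, and its RNA was followed across 88 mouse brain libraries. It is 1 gene of 18946 measured in the medial prefrontal cortex (mPFC), 19559 in the ventral hippocampus (vHPC) and 17515 tested in the bed nucleus of the stria terminalis (BNST), found in each table by its Ensembl identifier, ENSMUSG00000073643, and it was detected in every library. Wdfy1 was chosen by its measured levels in the mPFC, where it differed between the groups of B6 mice and between their identifier prefixes. Its levels in B6 mice of the mPFC are therefore a description, without a test.

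FYVE domains bind phosphatidylinositol 3-phosphate, a lipid that marks early endosomes, and WDFY1 sits on these vesicles through that domain. It is also known as an adaptor that brings TRIF (encoded by Ticam1) to the Toll-like receptors TLR3 and TLR4, from which signals run to interferon regulatory factors and to NF-κB. These receptors respond to double-stranded RNA and to bacterial lipopolysaccharide.

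The mice were males of 2 strains, labelled C57BL/6Crl (B6) and DBA/2Crl (D2), with a labelled age of 8 weeks. The study's methods name the stocks C57BL/6NCrl and DBA/2NCrl, from a single supplier, and do not give another stock for any B6 mouse. Defeated mice had been through chronic social defeat stress (CSDS), in which a mouse is repeatedly attacked by an aggressor, and were then classed as resilient or susceptible from a social avoidance test. Control mice were not defeated. Tissue was taken 6 to 8 days after the last CSDS session and no group carried a transgene or drug. The mPFC held 6 control, 6 resilient and 6 susceptible B6 mice with 6 control and 8 susceptible D2 mice. The vHPC held 6, 8 and 3 B6 mice with 6 control and 5 susceptible D2 mice. The BNST held 5 mice in every group except for 3 resilient D2 mice. In 7 mice both the mPFC and the vHPC were sequenced.

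Levels are log2 CPM, in which counts are scaled to the library total. A different library kit was used in each region, and the mPFC and vHPC values had been adjusted by the authors for library preparation sets whereas the BNST table held counts. Levels were therefore not compared between regions. Whether the bulk level of an RNA differs because cells of a type are fewer or because each holds less of it cannot be told apart. The BNST libraries held between 11825757 and 25793910 counted reads, of which 384 to 1372 were Wdfy1 reads. In the mPFC and vHPC the tables do not give the depth.

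The labelled regions were checked against marker genes, as values under different kits. The summed level of 3 dentate gyrus markers had a mean of 7.05 log2 CPM in the vHPC, beside 4.13 in the mPFC and 5.97 in the BNST, whose tables held 2 of the 3. The 3 inhibitory neuron markers summed to 10.25 on average in the BNST, beside 8.85 in the mPFC and 8.73 in the vHPC. The 4 excitatory neuron markers had means of 10.23 in the mPFC, 10.69 in the vHPC and 10.33 in the BNST, which does not mark the mPFC. Between mice, 5 striatal markers ranged from 8.495 to 12.112 in the BNST and 4 choroid plexus markers from 3.29 to 11.01 in the vHPC.

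Mice stood apart by the prefix of their identifier, the letters and number before the dot in the sample title. The meaning of the prefix is not given in the sources used here. B6 mice of the mPFC had the prefixes C1, C2, C5 and C7, B6 mice of the vHPC had only C1 and C2, and B6 mice of the BNST had only EC3 and EC4. Of the 9 mPFC mice with C1 or C2, 5 were controls and 4 were resilient. Of the 9 with C5 or C7, 1 was a control, 2 were resilient and 6 were susceptible, so all susceptible B6 mice of the mPFC carried C5 or C7.

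Wdfy1 lies on chromosome 1 at 79702262 to 79776143 on the minus strand (GRCm38, GENCODE M21). It has 14 annotated transcripts, 9 of them protein coding, and the main coding transcript has 12 exons with 4551 exon bases, 1230 of which are coding. The 5′ end overlaps that of Mrpl44, which encodes a mitochondrial ribosomal protein and runs on the other strand from 79776018. Of 5715 windows of 96 bases in the Wdfy1 transcripts, 0.542% also occur in another gene, and that gene was Mrpl44. Few reads could thus come from both genes. Gm10555, a transcript model on the opposite strand, lies within the locus.

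In the mPFC, Wdfy1 was lowest in control B6 mice, with a lowest level of 4.87, a median of 5.12 and a highest level of 5.98 log2 CPM (mean 5.20 ± 0.40, SD, n = 6). Resilient B6 mice had 5.04, 5.13 and 6.18 (mean 5.45 ± 0.54, SD, n = 6). Susceptible B6 mice had 6.02, 6.17 and 6.48 (mean 6.20 ± 0.18, SD, n = 6). The susceptible group lay above every control and overlapped the resilient group. Both the control and the resilient group fell into a low and a high set of mice with nothing between them.

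Control D2 mice had a lowest mPFC level of 6.14, a median of 6.36 and a highest level of 6.47 (mean 6.33 ± 0.12, SD, n = 6), and susceptible D2 mice had 6.09, 6.45 and 6.60 (mean 6.382 ± 0.180, SD, n = 8). The D2 groups overlapped each other and the susceptible B6 group. In the order of mPFC levels, from control to resilient to susceptible B6 and on to control and susceptible D2 mice, each group overlapped the next.

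**Figure D1:**
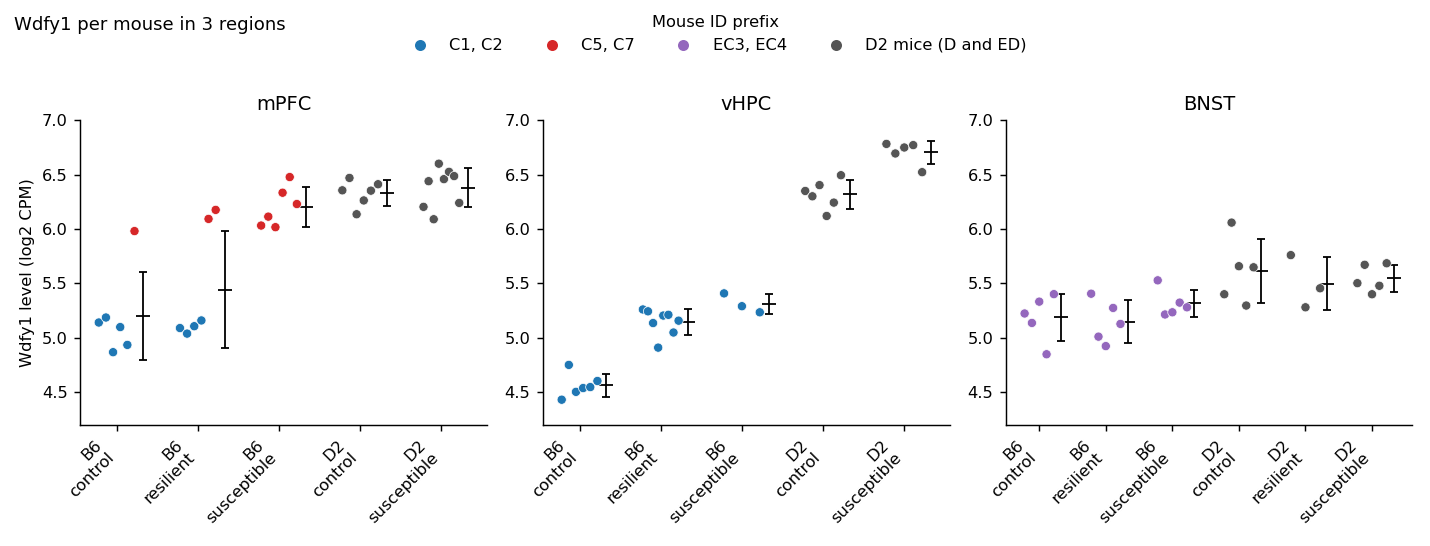
Wdfy1 in log2 CPM for each mouse (points) by group in the mPFC, vHPC and BNST, coloured by mouse ID prefix, with the group mean and SD beside the points. In the mPFC the 9 B6 mice with prefix C5 or C7 sit at 5.98 and above, whatever their phenotype, and the 9 with C1 or C2 sit at 5.187 and below, while levels of different regions are not on a common scale.

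The low and high mPFC mice were those of different prefixes. The 9 B6 mice with C1 or C2 ranged from 4.868 to 5.187 (mean 5.07 ± 0.11, SD) and the 9 with C5 or C7 from 5.98 to 6.48 (mean 6.16 ± 0.16, SD). The means differed by 1.09 on the log2 scale, a 2.133-fold difference, and the classes were 0.80 apart at their nearest. The C5 and C7 mice lay close to the D2 mice, which ranged from 6.09 to 6.60.

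Within a prefix class the phenotypes differed less than the classes did. Among C1 and C2 mice, the 5 controls had a mean of 5.05 ± 0.14 (SD) and the 4 resilient mice had 5.10 ± 0.05 (SD), a difference of 0.05. Among C5 and C7 mice, the 6 susceptible mice had a mean of 6.20 and the 2 resilient mice a mean of 6.14, a difference of 0.07. The single control had 5.98, so the susceptible mean exceeded it by 0.22, a value that rests on 1 control. Phenotypes therefore overlapped within C1 and C2, while in C5 and C7 the single control lay just below every defeated mouse.

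**Figure D2:**
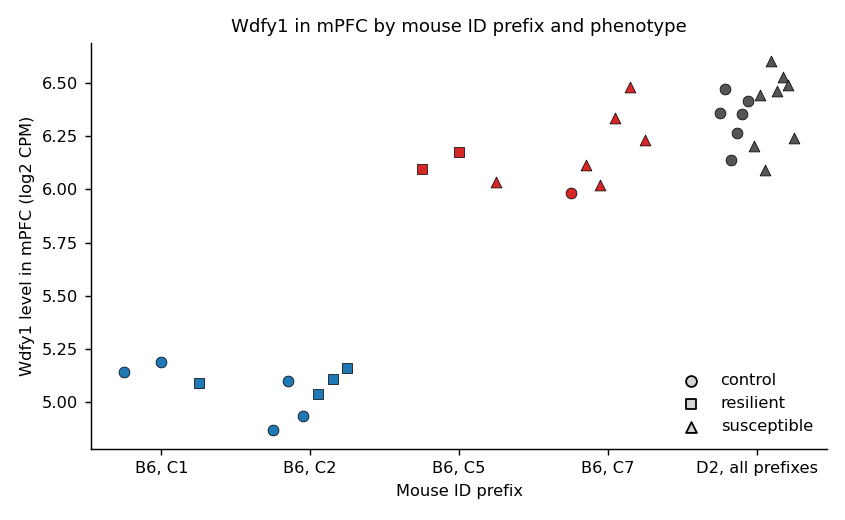
Wdfy1 in the mPFC (log2 CPM) by mouse ID prefix for the B6 mice, with the D2 mice of all prefixes beside them, and with the phenotype shown by the symbol. Controls and resilient mice appear in both the lower (C1 and C2) and the upper (C5 and C7) set of B6 mice, and susceptible mice appear only in the upper set.

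The group differences in the mPFC shrank once the prefix was taken into account. In the fit over all mPFC mice, susceptible B6 mice exceeded controls by 1.0 (SE 0.18) and resilient mice by 0.76 (SE 0.18), and resilient mice exceeded controls by 0.24 (SE 0.18). These contrasts chose the gene and are not evidence for it. In the same contrasts, 2.22%, 2.02% and 0% of all 18946 genes had an adjusted p under 0.05. With the prefix as a covariate, the differences became 0.15 (SE 0.125), 0.03 (SE 0.128) and 0.11 (SE 0.091). Those of the susceptible mice rest on few animals. C7 held 1 control beside 5 susceptible mice, and C5 held 2 resilient mice beside 1 susceptible mouse. Prefix and susceptibility can thus hardly be told apart in these mice. In the B6 mice, relative to C2, the prefix terms were 0.12 for C1 (SE 0.10), 0.999 for C5 (SE 0.11) and 1.09 for C7 (SE 0.13).

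The classes remained apart within library preparation sets. In the 4 sets that held both classes of B6 mice, C5 and C7 mice exceeded C1 and C2 mice by 1.121 to 1.369. The smallest difference was in the set with 1 C2 mouse at 4.93 and 4 mice with C5 or C7 at 5.98 to 6.12.

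Control D2 mice exceeded control B6 mice by 1.131 (SE 0.18) in the mPFC, also as a description. The difference was 1.29 against the 5 controls with C1 or C2 and 0.35 against the single control with C7. In the same contrast, 27.79% of all genes passed the threshold.

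Among the D2 mice of the mPFC, whose difference did not choose the gene, stress was tested. Susceptible D2 mice differed from control D2 mice by 0.05 (SE 0.17, 95% interval from -0.28 to 0.37), which did not pass the threshold (limma, Benjamini-Hochberg adjusted p = 0.991). This SE is pooled over all mPFC mice, the divided B6 groups included, and with only the D2 groups in the fit it was 0.08 (adjusted p = 0.98 in limma). An exact two-sided permutation test of the 14 mice gave p = 0.563, and no gene passed in that contrast with limma (0% of 18946 genes, although 734 had an unadjusted p under 0.05). The D2 mice with prefix D5 exceeded those with D10 by 0.11 (SE 0.11), which was not past the threshold (limma, adjusted p = 0.759, in a contrast where 0.285% of all genes passed).

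Of all mPFC genes, 94 (0.496%) had no overlap between the 9 C1 and C2 mice and the 9 C5 and C7 mice, 25 of them higher in C5 and C7 and 69 lower. These classes were set after the Wdfy1 values had been seen. The absolute difference was at least that of Wdfy1 in 8 of the 94 genes, Wdfy1 included, and over all genes the median difference was 0.00. The place of Wdfy1 among them follows from its choice.

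The genes that followed Wdfy1 most closely were sought by Pearson correlation across the 32 mPFC mice after the strain mean was removed from each value. The mice share libraries prepared in the same sets and fall into prefix classes, so the correlations describe the data and carry no test. Among 18945 other genes, 12 had r above 0.8 and 31 below -0.8. The 10 highest and the 5 lowest are described here. In 14 of these 15 genes the prefix classes of the B6 mice did not overlap, against 0.496% of all genes. That count largely follows from the choice, as Wdfy1 itself divides the same mice by prefix. The next genes were Ndn at 0.813 and Bex2 at -0.883. Within the C1 and C2 mice alone, 6 of the 15 genes had r beyond 0.5 in size with the same sign. Within the C5 and C7 mice and within the D2 mice, 11 did so in each. Of the 15 genes, 13 kept the sign of r in the vHPC, all but Nnt and Cd59a. Of the 12 measured in the BNST, 5 kept it.

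Nnt, the mitochondrial transhydrogenase that makes NADPH and is disrupted in some C57BL/6J stocks, had r = 0.962. Its r was 0.357 in the C1 and C2 mice alone, -0.736 in the vHPC and 0.244 in the BNST. The level of Nnt ranged from 5.05 to 5.26 log2 CPM in the 9 C1 and C2 mice and from 5.63 to 5.93 in the 9 C5 and C7 mice. In D2 mice Nnt ranged from 4.96 to 5.35, near the C1 and C2 mice, so it did not follow Wdfy1 between strains.

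Gabra2, a subunit of the GABA-A receptor that is also known to differ between C57BL/6 stocks, had r = 0.953. It ranged from 6.28 to 6.64 in C1 and C2 mice, from 7.06 to 7.31 in C5 and C7 mice and from 7.06 to 7.58 in D2 mice. Here, as for Wdfy1, the C5 and C7 mice lay within or next to the D2 range. Within the 9 C5 and C7 mice alone the correlation of Gabra2 with Wdfy1 was 0.922, and within the C1 and C2 mice it was 0.445.

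Cd59a, an inhibitor of complement, had r = 0.952 with means of 2.84 ± 0.22 in C1 and C2 and 3.91 ± 0.15 in C5 and C7 (SD, n = 9 each). Kif26b, a kinesin family member, had r = 0.868 and differed by 0.44. Cep350, a centrosomal protein gene, had r = 0.845 and differed by 0.12. These differences varied widely in size although the order of the mice was much alike.

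Other genes at the high end are pseudogenes, members of families with near copies, or lie on an unplaced scaffold. Counting may split their reads between copies, and their levels are uncertain. Gm28438, an unprocessed pseudogene, had the highest correlation, at r = 0.979, with a mean of -0.76 in C1 and C2 mice against 5.05 in C5 and C7 mice. Tmem181b-ps (r = 0.943), Dynlt1-ps1 (0.840), Dynlt1b (0.840) and the scaffold gene AC149090.1 (0.814) differed by 1.117, 0.554, 1.092 and 0.816 between the classes. Dynlt1-ps1 was the gene among the 15 whose classes overlapped.

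At the low end, Gm15446, which is annotated as protein coding, had r = -0.984. It ranged from 5.02 to 5.88 in C1 and C2 mice and from 1.32 to 2.81 in C5 and C7 mice, a difference of -2.93, while D2 mice ranged from 4.51 to 5.59. S1pr5, a sphingosine 1-phosphate receptor found in oligodendrocytes, had r = -0.902, with 4.21 ± 0.18 in C1 and C2 and 3.31 ± 0.26 in C5 and C7 (SD, n = 9 each). Adss, an enzyme of adenine nucleotide synthesis, had r = -0.897 and a difference of -0.41. Hist1h4m, a histone gene, and mt-Nd3, a subunit gene of respiratory complex I, had r = -0.944 and -0.891. Hist1h4m had means of 0.12 in C1 and C2 and -4.61 in C5 and C7, and mt-Nd3 had 2.32 and -2.98. Both had mean levels below 1 CPM over all mice. Whether reads of these 2 genes were split between near copies was not tested, so their levels are uncertain too.

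**Figure D3:**
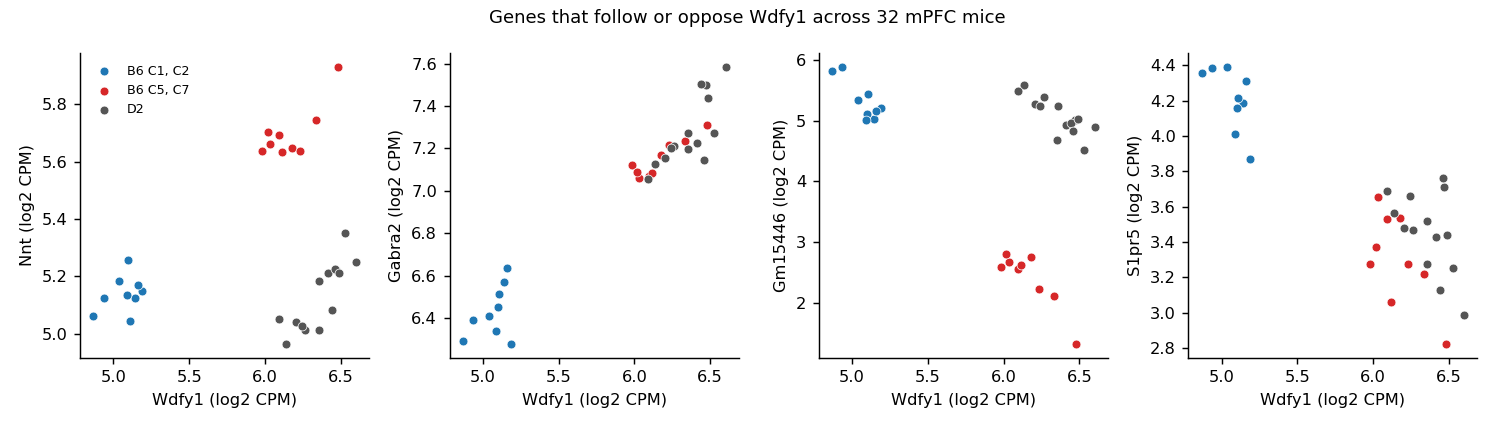
Levels of Nnt, Gabra2, Gm15446 and S1pr5 (y axes) against Wdfy1 (x axes), all in log2 CPM, in 32 mPFC mice coloured by B6 prefix class and strain. The C1 and C2 mice form a cluster apart from the C5 and C7 mice in every panel, and the D2 mice lie with the C5 and C7 mice for Gabra2 but near the C1 and C2 mice for Nnt and Gm15446.

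The 15 genes lie on 9 chromosomes or scaffolds, with 4 of them on chromosome 1 and none within 1 Mb of Wdfy1. The study's methods give 1 source and stock for all B6 mice, and whether mice of different prefixes differed in origin was not tested.

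Markers of oligodendrocytes, the myelin-forming cells, moved with the prefix classes too. The summed level of 8 oligodendrocyte markers ranged from 10.79 to 11.58 log2 CPM in C1 and C2 mice. In C5 and C7 mice it ranged from 10.16 to 10.78. Of the 8 markers, 4 did not overlap between the classes, all being lower in C5 and C7 (background 0.496% of all genes). The summed level of 5 striatal neuron markers was 7.206 ± 0.515 and 6.314 ± 0.307 (SD, n = 9 each), with overlap for each marker. The other lists, for astrocytes, microglia, endothelial cells, blood, choroid plexus and neurons of 5 kinds, had no marker without overlap. The part of these differences in the Wdfy1 level was not tested.

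The genes around Wdfy1 did not divide the prefix classes without overlap. Within 1 Mb on either side, 18 other genes were measured in the mPFC. In none of them were the C1 and C2 mice separated from the C5 and C7 mice (background 0.496% of all genes). Ap1s3, a clathrin adaptor subunit and the nearest coding gene on the lower side at a distance of 30.3 kb, differed by -0.08. Mrpl44, which overlaps the 5′ end, differed by -0.06, with a mean of 4.10 ± 0.14 in C1 and C2 and 4.05 ± 0.08 in C5 and C7 (SD, n = 9 each).

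The neighbours with the largest differences in the mPFC were transcript model Gm37932 (0.36) and the potassium channel subunit Kcne4 (0.26), both expressed at a low level. Acsl3, which activates fatty acids, had the highest correlation in size, r = -0.808, and differed by -0.20. Its means were 8.23 ± 0.06 in C1 and C2 and 8.03 ± 0.07 in C5 and C7 (SD, n = 9 each), and the classes overlapped.

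**Figure D4:**
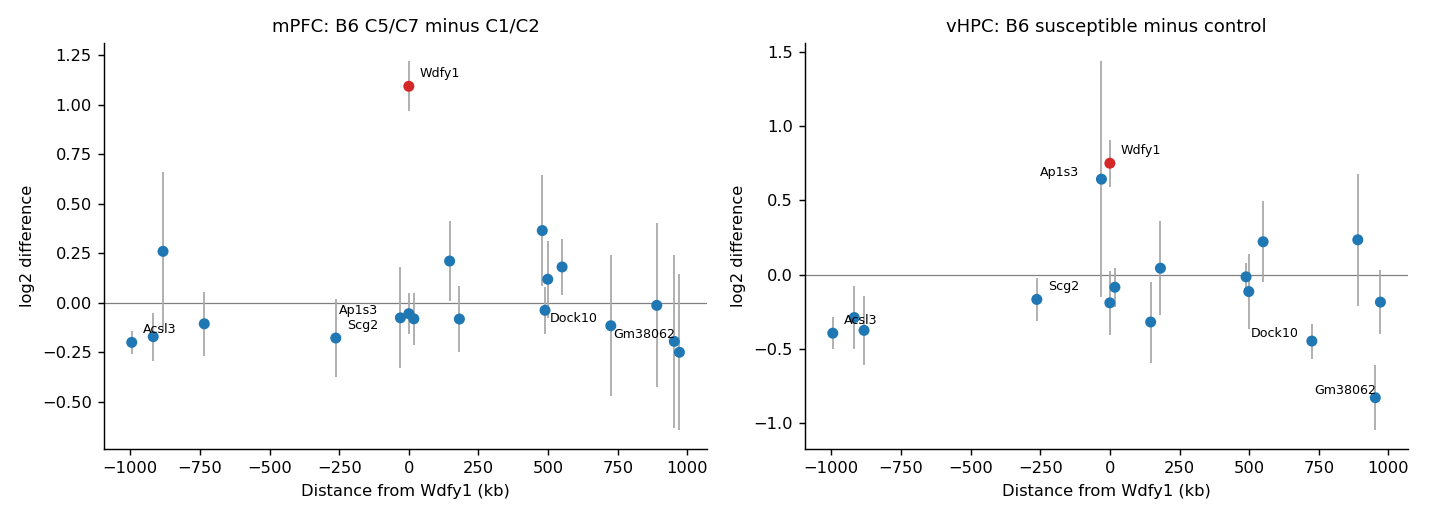
Differences in log2 level of the genes within 1000 kb of Wdfy1 against their distance from it (0 where they overlap), for B6 mice of the mPFC with C5 or C7 minus those with C1 or C2 (left) and for susceptible minus control B6 mice of the vHPC (right). Points are genes, bars are 95% intervals, and Wdfy1 (red) lies at 1.09 and 0.75, no neighbour being separated between the classes on the left. On the right 5 neighbours are past the threshold, all lower (Acsl3, Gm6159, Kcne4, Dock10 and Gm38062, from -0.29 to -0.83), and Ap1s3 has a wide bar.

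The vHPC gave a measure that had not chosen the gene, and all its B6 mice carried C1 or C2. Control B6 mice had a lowest level of 4.43, a median of 4.54 and a highest level of 4.75 (mean 4.56 ± 0.11, SD, n = 6), and resilient B6 mice had 4.91, 5.18 and 5.26 (mean 5.15 ± 0.12, SD, n = 8). The 3 susceptible B6 mice had 5.24, 5.29 and 5.41 (mean 5.31 ± 0.09, SD). Defeated B6 mice of either phenotype lay above every control, and the resilient and susceptible mice overlapped.

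Control D2 mice of the vHPC had a lowest level of 6.12, a median of 6.33 and a highest level of 6.496 (mean 6.32 ± 0.13, SD, n = 6). The 5 susceptible D2 mice had 6.52, 6.70, 6.75, 6.77 and 6.78 (mean 6.71 ± 0.11, SD). These groups did not overlap, although the nearest mice were only a little apart, and both lay above all B6 mice.

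Wdfy1 was higher in defeated than in control mice of the vHPC in both strains. Resilient B6 mice exceeded controls by 0.58 (SE 0.06), a 1.5-fold difference (limma, adjusted p = 2.06e-07), with 8 of 8 mice above the control mean. Susceptible B6 mice exceeded controls by 0.75 (SE 0.08), a 1.68-fold difference (limma, adjusted p = 1.51e-07, 3 of 3 mice). Susceptible D2 mice exceeded control D2 mice by 0.39 (SE 0.07), a 1.31-fold difference (limma, adjusted p = 0.000969, 5 of 5 mice). In these contrasts 10.84%, 40.64% and 4.28% of all 19559 genes passed, and 4.94%, 20.5% and 1.54% passed with a higher level in the defeated mice, so that a call was common for susceptible B6 mice. In size, the Wdfy1 difference exceeded that of 97.7%, 93.8% and 95.2% of the genes.

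Exact two-sided permutation tests over the mice gave p = 0.000666, 0.0238 and 0.00433 for these 3 contrasts, each of which is the smallest value its group sizes allow. Adjusted over the 10 comparisons so tested they were 0.00666, 0.0595 and 0.0144, so the susceptible B6 mice, with 3 animals, did not pass by this test.

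These stress differences could not be separated from library preparation. B6 controls shared no library set with B6 mice that had been defeated, in any of the 9 sets with B6 mice of the vHPC, and 1 of the 6 sets with D2 mice held both kinds. In that set the control D2 mouse had 6.496 and the susceptible one 6.524. All 6 B6 controls were in sequencing set 1, in which the 1 resilient mouse had 4.91 and the 2 susceptible mice 5.24 and 5.41, each above the highest control at 4.75.

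With the library set as a covariate, the difference of resilient B6 mice was 0.84 (limma, adjusted p = 0.0685), that of susceptible B6 mice 0.88 (adjusted p = 0.0135) and that of susceptible D2 mice 0.02 (adjusted p = 0.995). The first and the last no longer passed, and the last was nearly 0. In B6 mice such a fit links controls and defeated mice only through D2 mice. Library set and defeat thus cannot be told apart in the vHPC of B6 mice. With the sequencing set as a covariate all 3 kept their calls, at 0.53, 0.73 and 0.35.

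Markers of several cell types also moved with the groups of the vHPC. The summed level of the oligodendrocyte markers was 11.77 ± 0.07 in control, 11.45 ± 0.20 in resilient and 11.03 ± 0.10 in susceptible B6 mice, and 10.61 ± 0.23 in control and 10.33 ± 0.17 in susceptible D2 mice (SD, group sizes as above). This order was the reverse of that of Wdfy1. In the same order of groups, endothelial markers had means of 8.08, 7.95, 7.71, 7.52 and 7.43, dentate gyrus markers 7.46, 7.24, 7.02, 6.77 and 6.60, astrocyte markers 10.471, 10.386, 10.251, 10.149 and 10.103, and striatal markers 5.66, 5.41, 5.29, 5.01 and 4.91. All of these were highest in B6 controls and lowest in susceptible D2 mice. Choroid plexus markers had means of 8.36, 7.72, 5.42, 5.64 and 5.29, with SDs of up to 2.35, and the microglia markers lay between 7.53 and 7.71. The 3 general neuron markers had means of 10.91, 10.93, 11.13, 11.04 and 11.10. The part of these cells in the Wdfy1 differences was not tested.

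The strains differed more than the phenotypes in the vHPC. Control D2 mice exceeded control B6 mice by 1.76 (SE 0.07), a 3.38-fold difference (limma, adjusted p = 1.13e-17), with 6 of 6 D2 mice above every B6 control. In this contrast 59.32% of all genes passed and 30.22% passed with a higher level in D2 mice, and the Wdfy1 difference was larger than that of 97.5% of the genes. The exact permutation test gave p = 0.00216, the smallest possible value, or 0.0108 after adjustment over the 10 comparisons. B6 controls and D2 controls shared no library set, so strain and library set were not separated among the controls. With the library set as a covariate the difference was 1.995 (limma, adjusted p = 7.85e-07), and 1643 genes were called in place of 11603. Such a fit links the controls of the strains only through defeated mice.

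The difference of susceptible from control mice was smaller in D2 than in B6 mice, with a strain by stress interaction of -0.36 (SE 0.11), which did not pass the threshold (limma, adjusted p = 0.108, where 0.782% of all genes passed). No prefix difference passed in the vHPC. C2 mice differed from C1 mice of the B6 strain by -0.07 (SE 0.06, adjusted p = 1) and D5 mice from D4 mice of the D2 strain by 0.01 (SE 0.07, adjusted p = 1), in contrasts where limma called no gene (0% of 19559, although the unadjusted p was under 0.05 for 57 and 78 genes).

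In the BNST, where whole counts were deposited, Wdfy1 levels lay close together. After TMM scaling, the 5 control B6 mice had 4.849, 5.137, 5.224, 5.333 and 5.402 log2 CPM. The 5 resilient B6 mice had 4.924, 5.011, 5.128, 5.275 and 5.406. The 5 susceptible B6 mice had 5.215, 5.235, 5.281, 5.324 and 5.529. These groups overlapped throughout. The 5 control D2 mice had 5.297, 5.401, 5.649, 5.659 and 6.060, the 3 resilient D2 mice had 5.281, 5.456 and 5.761, and the 5 susceptible D2 mice had 5.401, 5.479, 5.503, 5.672 and 5.686. Each group overlapped the next in the order of the means, and no B6 group showed the separate low and high sets of the mPFC.

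No stress difference passed the threshold in the BNST. Resilient and susceptible B6 mice differed from controls by -0.04 (SE 0.14, 95% interval from -0.32 to 0.23) and by 0.12 (SE 0.14, interval from -0.16 to 0.40). Resilient and susceptible D2 mice differed from their controls by -0.12 (SE 0.16, interval from -0.44 to 0.20) and by -0.09 (SE 0.14, interval from -0.36 to 0.19). Adjusted p was between 0.938 and 1 (edgeR). In these contrasts edgeR called 0% of 17515 genes, although the unadjusted p was under 0.05 for 328, 1115, 953 and 1056 genes, and DESeq2 called 1, 0, 3 and 12 genes. Exact permutation p-values were between 0.317 and 0.77.

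Control D2 mice exceeded control B6 mice of the BNST by 0.44 (SE 0.14), a 1.35-fold difference, with 5 of 5 D2 mice above the B6 mean and overlapping groups. This did not pass in edgeR (adjusted p = 0.119, where 2.51% of all genes passed), and the exact permutation test gave p = 0.0397, or 0.0794 after adjustment over the 10 comparisons. With 1 mouse left out the difference ranged from 0.309 to 0.51. The 4 thalamic neuron markers summed to 8.70 ± 1.17 in these D2 controls and 7.81 ± 0.49 in the B6 controls (SD, n = 5 each). The part of tissue makeup in the Wdfy1 difference was not tested. The interaction was -0.20 (SE 0.20, edgeR, adjusted p = 0.759), and EC4 mice did not differ from EC3 mice beyond the spread (0.00, SE 0.12, adjusted p = 0.996). For both of these edgeR called 0% of the genes, although the unadjusted p was under 0.05 for 2004 and 1876 genes, and DESeq2 called 223 genes in the interaction.

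**Figure D5:**
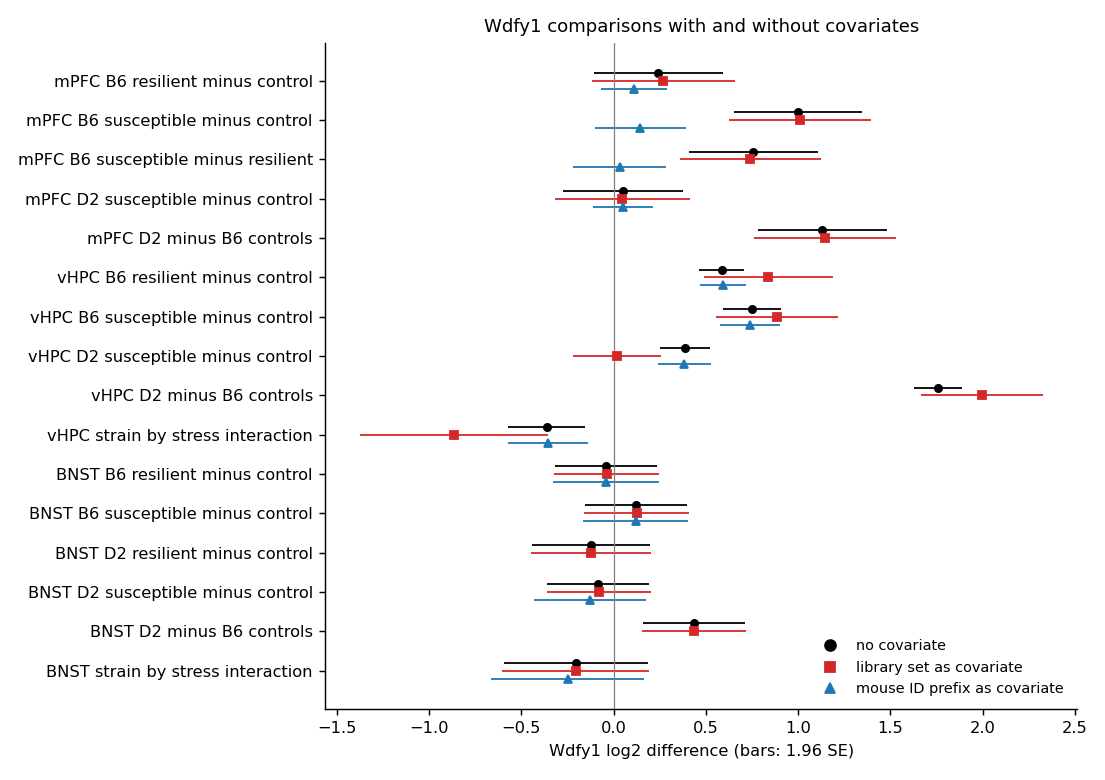
Wdfy1 differences on the log2 scale (x axis) for each comparison, from fits without a covariate (circles), with the library set (squares) and with the mouse ID prefix (triangles) as a covariate, where these could be fitted, and bars of 95% intervals. The prefix moves the mPFC differences of susceptible B6 mice from 1.0 and 0.76 to 0.15 and 0.03. All susceptible B6 mice there carry C5 or C7, so prefix and susceptibility can hardly be told apart. The library set moves the difference of susceptible D2 mice of the vHPC from 0.39 to 0.02.

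The offset between strains can be set side by side for the prefix classes, taken within each region and over all phenotypes. D2 mice exceeded B6 mice in Wdfy1 by 1.29 (mPFC) and 1.53 (vHPC) against C1 and C2, by 0.20 (mPFC) against C5 and C7, and by 0.34 (BNST) against EC3 and EC4. The larger offsets were those against C1 and C2. For Nnt the offsets were -0.01 (mPFC) and -0.35 (vHPC) against C1 and C2, -0.57 against C5 and C7 and -0.44 against EC3 and EC4. Those against C1 and C2 were again the higher ones, but the vHPC offset lay near the one against EC3 and EC4. The offsets against C1 and C2 were also the higher ones for Cd59a, with 0.74 and 0.35 beside -0.33 and -0.76. The same held for Tmem181b-ps, with 0.08 and 0.66 beside -1.04 and -1.29. The full order of the offsets differed between these genes.

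Gm15446 showed the same grouping of offsets with a change of sign. D2 mice were offset from C1 and C2 mice by -0.26 (mPFC) and -0.70 (vHPC), but from C5 and C7 mice by 2.67 (mPFC) and from EC3 and EC4 mice by 3.55 (BNST). For Gabra2, D2 mice exceeded C1 and C2 mice by 0.85 and 1.28, whereas the offsets against C5 and C7 and against the EC mice were 0.13 and -0.05. For S1pr5, the offsets were -0.76 and -1.003 against 0.15 and -0.10. Cep350 did not show the grouping, with 0.08 (mPFC) and 0.14 (vHPC) against C1 and C2, -0.05 against C5 and C7 and 0.11 against EC3 and EC4. The genes were picked by correlation in the same mPFC mice, so the gap between their mPFC offsets follows from that choice. The regions differ in kit and cell makeup, so these values were not tested against each other.

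For the 7 mice with both regions, Wdfy1 was 5.187 in the mPFC and 4.503 in the vHPC of a control B6 mouse, and 4.935 and 4.603 in the other. Of the 2 resilient B6 mice, one had 5.11 (mPFC) and 5.20 (vHPC), and the other 5.16 and 5.05. The control D2 mouse had 6.41 and 6.24, and the susceptible D2 mice had 6.53 and 6.70 in one, and 6.49 and 6.52 in the other. All 4 B6 mice carried C1 or C2. Their phenotypes lay close together in the mPFC, and in the vHPC the resilient mice were above the controls.

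The other genes of the family did not divide by prefix. Per kilobase of exon, the mean mPFC level was 3.24 log2 CPM for Wdfy1, 0.34 for Wdfy2, an endosomal relative with the same domains, 5.04 for Wdfy3, a large autophagy adaptor, and -0.82 for Wdfy4, which acts in antigen presentation by dendritic cells. C5 and C7 mice differed from C1 and C2 mice by -0.05, 0.10 and 0.08 for Wdfy2, Wdfy3 and Wdfy4, with overlap in each. Wdfy3 was thus the most abundant member and Wdfy1 the next, an order that was the same in the vHPC and the BNST.

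Genes of the TLR3 and TLR4 pathway to TRIF were examined as a list of 23 genes, of which 18 were measured in the mPFC and 19 in each other region. In the mPFC none of the 18 separated the prefix classes (background 0.496%), with a median difference of 0.03. The adaptor gene Ticam1 did not differ beyond the threshold in any tested contrast, and its largest difference in the vHPC was 0.11 (SE 0.11) in susceptible D2 mice. Tlr3 likewise did not pass in any contrast, with -0.19 (SE 0.09) in resilient B6, -0.04 (SE 0.12) in susceptible B6 and -0.08 (SE 0.10) in susceptible D2 mice of the vHPC.

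In the vHPC of susceptible B6 mice, 2 of 19 pathway genes were higher and 6 lower, with a median of -0.14 beside -0.01 for all genes. These 8 of 19 are a share near the background of 40.64%. Irf3, a transcription factor that induces interferon, was lower by 0.52 (SE 0.08, limma, adjusted p = 4.54e-05), and Tlr4 by 0.78 (SE 0.13, adjusted p = 5.74e-05). Traf3, a ubiquitin ligase downstream of TRIF, was higher by 0.50 (SE 0.10, limma, adjusted p = 4.00e-04). Sarm1, a TIR domain protein of axon degeneration, was higher by 0.48 (SE 0.10, limma, adjusted p = 7.81e-04). In resilient B6 mice only the kinase gene Tbk1 passed, at 0.09 (SE 0.03, limma, adjusted p = 0.0316), and in susceptible D2 mice none of the 19 did. Tlr4 had -0.30 (SE 0.10) and -0.27 (SE 0.11) in these groups, short of the threshold. The limit on library sets given for Wdfy1 in the vHPC holds for these stress contrasts too.

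Between strains, 5 of the 19 genes were higher and 10 lower in D2 than in B6 controls of the vHPC (background 59.32%), with a median of -0.24 beside 0.01 for all genes. Irf3 differed by -0.88 (SE 0.07), Tlr4 by -1.08 (SE 0.10), Unc93b1, which carries endosomal TLRs, by -0.54 (SE 0.07), and the kinase gene Ikbke by -0.76 (SE 0.11), all past the threshold (limma). As the controls of the strains shared no library set in the vHPC, strain and library set were not separated here either. In the BNST, Tbk1 alone passed between strains, at 0.51 (SE 0.10, edgeR, adjusted p = 0.0024), and no pathway gene passed in a stress contrast of the BNST or of the D2 mPFC (0 of 19 and 0 of 18).

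Genes that bind or make phosphatidylinositol 3-phosphate at early endosomes formed a list of 23 genes, all measured in each region. None separated the prefix classes of the mPFC (background 0.496%), with a median difference of -0.01. In the vHPC of susceptible B6 mice, 4 were higher and 8 lower (12 of 23 against 40.64%), with a median of -0.02. Mtmr4, a phosphatase that removes the lipid mark, was higher by 0.41 (SE 0.04, limma, adjusted p = 8.56e-08). Zfyve9, an adaptor of TGF-β signalling, was lower by 0.26 (SE 0.04), Plekhf1 by 0.53 (SE 0.13), and the ESCRT component Stam by 0.21 (SE 0.06).

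Mtmr4 and Zfyve9 passed in the other stress contrasts of the vHPC as well. Mtmr4 was higher by 0.20 in resilient B6 mice (SE 0.03, limma, adjusted p = 1.27e-04) and by 0.22 in susceptible D2 mice (SE 0.04, adjusted p = 3.75e-04). Zfyve9 differed by -0.14 (SE 0.03) and -0.13 (SE 0.04), and these were the only list members called in either contrast (2 of 23 in each, against 10.84% and 4.28%). Between strains, 5 members were higher and 7 lower in D2 controls (background 59.32%), among them Mtmr4 at 0.52, Zfyve9 at -0.48, Plekhf1 at -0.76 and the FYVE protein gene Rufy1 at 0.36. Eea1, the tethering protein used as an early endosome marker, was higher in D2 controls by 0.10 (SE 0.03, limma, adjusted p = 0.0121) and passed in no stress contrast, with values from -0.01 to 0.06 in the vHPC. The B6 contrasts share control mice, and the limit on library sets given for Wdfy1 in the vHPC holds for these genes too. In the BNST and the D2 mPFC no member passed.

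Among the neighbours of Wdfy1 in the vHPC, 16 of the 18 were measured, and none passed as higher in a stress contrast. As for Wdfy1, these stress contrasts carry the limit on library sets of the vHPC. In susceptible B6 mice 5 of 16 were lower (background 40.64%), including Acsl3 at -0.39 (SE 0.05), Gm6159 at -0.29 (SE 0.11), Kcne4 at -0.38 (SE 0.12), Dock10, a guanine nucleotide exchange factor, at -0.45 (SE 0.06) and Gm38062, a transcript model inside Dock10, at -0.83 (SE 0.11). Gm38062 lies within Dock10 on the same strand, and the genes may share reads. They were also the 2 neighbours lower in resilient B6 mice (-0.18 and -0.55) and in susceptible D2 mice (-0.21 and -0.53). Ap1s3 had 0.64 in susceptible B6 mice but with an SE of 0.41 did not pass (limma, adjusted p = 0.208), and Mrpl44 had -0.19 (SE 0.11, adjusted p = 0.166).

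Between strains in the vHPC, 1 neighbour was higher in D2 controls, transcript model Gm37262 (0.39, SE 0.11), and 8 were lower, among 16 measured (background 59.32%). Serpine2, a secreted protease inhibitor and the nearest gene beyond Mrpl44 at 18.1 kb, differed by -0.46 (SE 0.06, limma, adjusted p = 8.53e-08). The others were Acsl3 (-0.43), Gm6159 (-0.38), Gm5529 (-0.38), Cul3 (-0.10), Dock10 (-0.59), Gm38062 (-1.61) and A630081D01Rik (-0.32), which also lies within Dock10. Scg2 and Mrpl44 did not pass. These strain differences carry the same limit, as the controls of the strains shared no library set in the vHPC. In the BNST none of the 13 neighbours measured passed in any contrast.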

How the data were processed

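The gene, the lists and the tests were chosen with earlier results of these data known. Per the labels, RNA was depleted of rRNA and sequenced from each region with a different library kit. The authors trimmed and deduplicated reads, aligned them to GRCm38 with STAR, and counted exon reads with HTSeq. The deposited mPFC and vHPC values are log2 CPM, made by the authors with voom after a filter of at least 1 CPM in at least 6 libraries, then corrected by ComBat for library sets (mPFC and vHPC) and sequencing sets (vHPC). The deposited BNST values are whole read counts. Library and sequencing sets were read from the study's list of samples.

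Deposited log2 values were fitted with limma 3.58.1 and robust empirical Bayes moderation, with a mean per group over all mice of a region. BNST counts were filtered in the same way, scaled with TMM, and fitted with edgeR 4.0.16 (robust quasi-likelihood). BNST levels are log2 CPM with a prior count of 0.5. Adjusted p-values are Benjamini-Hochberg over all genes of a region, two-sided, with a threshold of 0.05. Intervals of 95% use the normal approximation. Single comparisons were also tested by exact permutation (SciPy 1.17.1). Each library of a region is a separate mouse, so SDs and tests measure the spread between mice. The fits were tested on simulated data, in which 200 genes of susceptible B6 mice differed from controls by 1 log2 unit. Of these genes, 93% (mPFC), 94% (vHPC) and 43% (BNST) were called, with 11, 5 and 1 false calls. The BNST fit can thus miss many differences of that size.

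Genes named were Wdfy1 and its family, the 10 highest and 5 lowest mPFC correlations after strain centring, the nearest coding neighbours and those within 1 Mb past a threshold, and from each list up to 4 members past the threshold per contrast with Tlr3, Tlr4, Ticam1 and Eea1. Other neighbours, Ndn and Bex2, were named after their values were seen. Symbols and positions are from GENCODE M21, which held 99.56%, 99.61% and 99.65% of the mPFC, vHPC and tested BNST identifiers. Alternatives were no robust option, quantile normalization, other filters, DESeq2 1.42.0, voom with ComBat (sva 3.50.0) for the BNST, no TMM factors, only the groups compared, covariates, and each mouse left out. For the prefix comparisons within a strain, the alternatives were added after the data were seen.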

Additional observations from a re-analysis of the deposited data

Results flagged for a closer look

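Control B6 mouse replicate 6 of the mPFC had a Wdfy1 level of 5.98 log2 CPM, far above the other 5 controls, with a gap to the next mouse of 0.714 of the group's range. It was the only control with prefix C7. Wdfy1 was chosen by these levels, so that the gap is a description and no test. Of the 14 groups with 4 or more mice, no other held a mouse so far from the rest.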

How the results depend on the processing

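Within a region no paired analysis was possible, because a mouse falls in 1 group of the region and its replicate number follows accession order. The 7 mice with both the mPFC and the vHPC were only described. With the prefix as a covariate, the mPFC difference of susceptible B6 mice was 0.145 against controls and 0.033 against resilient mice. In this fit only 1 control and 2 resilient mice carried C5 or C7, as all susceptible mice did. Contrasts between strains and that of resilient D2 mice of the BNST could not be fitted with the prefix. With the library set as a covariate, the vHPC differences of resilient B6 mice (0.838, limma, adjusted p = 0.0685) and susceptible D2 mice (0.016, adjusted p = 0.995) no longer passed. The vHPC interaction passed at -0.413 with quantile normalization (limma, adjusted p = 0.0389) and at -0.363 with only the groups compared (adjusted p = 0.0472). Without TMM factors, BNST values changed sign to -0.143 in susceptible B6, 0.058 in resilient D2 and 0.239 in susceptible D2 mice, to 0.382 for the interaction and to -0.140 for EC4 minus EC3. With raw values in place of strain-centred ones, 6 of the 15 correlated genes were among the 15 again, 14 with rank correlation and 11 with each group mean removed. The cause was not tested in any of these.

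Leaving out 1 mouse changed no call of Wdfy1. The mPFC difference of resilient from control B6 mice, 0.243 over all mice, became 0.096 without resilient replicate 6, 0.113 without resilient replicate 5 and 0.399 without control replicate 6. Values near 0 changed sign, with ranges of -0.118 to 0.012 for resilient B6, -0.267 to 0.003 for resilient D2 and -0.159 to 0.043 for susceptible D2 mice of the BNST, -0.030 to 0.057 for EC4 minus EC3 and -0.054 to 0.053 for D5 minus D4 in the vHPC.

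Counts of genes called moved more. In susceptible minus control B6 mice of the mPFC, 420 became 4 with only the groups compared, 0 with the prefix and 39 with the library set, and against resilient mice 383 became 26, 0 and 2. With 1 mouse left out these counts ranged from 33 (without control replicate 3) to 802 (without control replicate 6) and from 4 (without susceptible replicate 5) to 839 (without susceptible replicate 1). With the library set in the vHPC, 2120, 7949, 837, 11603 and 153 genes (resilient B6, susceptible B6, susceptible D2, D2 minus B6, interaction) became 41, 202, 3, 1643 and 1. With the sequencing set, resilient B6 and susceptible D2 mice gave 558 and 380, and with only the groups compared resilient B6 mice gave 1260. The vHPC interaction gave 434 with quantile normalization, 1158 with only the groups compared, 82 with the prefix and 25 to 157 with 1 mouse left out. In D2 minus B6 controls of the BNST, 439 genes became 87 with only the groups compared and 660 with DESeq2. The BNST interaction, with none called, gave 1414 without TMM factors, 223 with DESeq2, 80 with the prefix and 0 to 111 with 1 mouse left out. Depth is known only in the BNST, where the fewest Wdfy1 reads in a library were 384.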
